A study of Homo sapiens with 4 samples.

Results

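The downstream part of the 5′ external transcribed spacer (5′ ETS) of human pre-rRNA is taken here as all nucleotides of the 47S transcript that follow position 1642 and precede position 3657, the first nucleotide of 18S. It runs from the region of the A0 cleavage site to the 5′ end of 18S. It was chosen by position alone, and holds 2014 of the 13780 nucleotides of the 47S sequence, all of them labelled as 5′ ETS. RNA was recovered by crosslinking and analysis of cDNA (CRAC), in which RNA crosslinked to a tagged protein in living cells is purified in native and then denaturing conditions, trimmed, reverse transcribed and sequenced. The cells were Flp-In T-REx HEK293, derived from human embryonic kidney and made to carry a tetracycline-inducible construct at a fixed site. After 24 h of tetracycline they expressed NKRF fused to Flag-His, or only the Flag-His tag. One pair of libraries came from cells irradiated at 254 nm with no added nucleoside (UV). The other pair came from cells given 100 µM 4-thiouridine for 6 h and irradiated at 365 nm (PAR). Each of the 4 groups is 1 library, so no difference below was tested across samples. NKRF in these cells was an induced, tagged copy, and neither its level nor markers of the cell line could be read from the rRNA profiles.

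The 5′ ETS leads the primary rRNA transcript and is absent from ribosomes. It is the first part of the transcript to be bound by the U3 small nucleolar RNA and the proteins of the small subunit processome, and it is removed by cleavages at A′, at A0 and at site 1, the 5′ end of 18S. The excised pieces are broken down by exonucleases, among them XRN2, which works from 5′ ends, and the RNA exosome, which works from 3′ ends. NKRF is a nucleolar protein with a G-patch, the short domain through which such proteins bind and stimulate DEAH-box helicases such as DHX15.

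With NKRF, 7 stretches of this spacer stood above the rest and together held 49.7% of its UV coverage and 58.7% of its PAR coverage on 371 nt, 18.4% of its length. They are the places where a peak was called in the UV or the PAR library, a peak being a summit of at least 2 times the mean coverage of the region in its library, set off by a valley of at most 50% of its height, with edges at 50% of the summit. Overlapping UV and PAR peaks were joined. Because the stretches were picked for high NKRF coverage, their raised shares, and in part their folds over the tag given below, follow from that choice. On the same positions the tag-only libraries held 30.1% (UV) and 34% (PAR) of their coverage of the region. The 7 stretches are printed below 5′ to 3′ from the deposited sequence, with T for U, because the values that follow refer to them. Capitals mark each T that was substituted in at least 25% of at least 10 NKRF PAR reads, a change that reverse transcription leaves at a crosslinked 4-thiouridine.
Positions 1774 to 1873: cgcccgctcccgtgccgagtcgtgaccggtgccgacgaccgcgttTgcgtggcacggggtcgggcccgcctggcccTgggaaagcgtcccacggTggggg
Positions 1905 to 1973: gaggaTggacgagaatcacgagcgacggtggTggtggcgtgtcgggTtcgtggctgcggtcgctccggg
Positions 2716 to 2763: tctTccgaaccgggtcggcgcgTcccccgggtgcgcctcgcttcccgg
Positions 2778 to 2814: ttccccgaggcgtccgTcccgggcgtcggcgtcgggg
Positions 2903 to 2957: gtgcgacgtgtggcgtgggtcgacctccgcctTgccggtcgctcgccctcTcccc
Positions 3118 to 3147: gcttcggccgggccccgggcccTcgaccgg
Positions 3220 to 3251: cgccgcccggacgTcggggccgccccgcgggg

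The whole region is rich in G and C, which make up 82.0% of it, against 75.8% of the 1642 nt upstream and 72.6% of the 47S transcript. A makes up 4.12% and T 13.9%. The 7 stretches had somewhat more A (6.74%) and T (15.6%) than the rest of the region (3.53% and 13.5%). T is not evenly spread among them, with 14 in the first stretch and 1 in the last. The mean predicted probability of being unpaired, from local folding of the sequence alone, was 0.332 in the stretches and 0.341 in the rest of the region, and over T alone 0.518 and 0.631. These are descriptions of sequence, with no test.

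Coverage is given below in normalised hits, that is, reads over a nucleotide per 1000000 reads of the library as the authors scaled them. From the spacing of the values, 1 read was worth 0.919 normalised hits for NKRF and 1.19 for the tag in the UV pair, and 4.43 and 8.91 in the PAR pair. This implies about 1087548 and 841751 reads with UV and 225912 and 112278 with PAR. For NKRF UV, where 1 read is worth less than 1 hit, this is an estimate that could be off by up to 12.6%, the largest error found when its read numbers were rescaled with 15 known steps. Within the region the profiles rested on at least 6803 and 124 reads with UV and 7244 and 34 with PAR. The tag-only values are therefore coarse, and those of the PAR library coarsest. PAR coverage was low where at least 80% of UV reads differed from the deposited sequence, as given for 3 sites further on, and whether the PAR files hold only reads with no change other than at T is not given in the sources used here. What this does to PAR coverage, peak heights, peak edges and substituted shares was not tested. Intervals below are 95% intervals for counting error only. Reads amplified by PCR with no molecular identifier need not be independent molecules.

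The region was almost filled with NKRF reads and nearly empty with the tag alone. Mean coverage reached 179 normalised hits for NKRF and 1.65 for the tag after UV, and 660 and 4.01 after PAR. NKRF reads covered 99.9% of its positions with UV and 99.1% with PAR, and tag-only reads 48.7% and 24.4%. As a share of the 47S coverage of its library, the region held 3.06% with NKRF and 0.0676% with the tag after UV crosslinking, a 45.2-fold difference (37.9 to 54.5). After PAR crosslinking it held 33.1% and 2.40%, a 13.8-fold difference (9.87 to 19.9). These folds depend on the scale, because 18S takes most of the tag-only 47S coverage. Scaled to all reads of the library they were 109 with UV and 164 with PAR, and over the 47S coverage without 18S they were 13.9 and 4.57. How much of a difference lies in the amount of RNA present and how much in its contact with NKRF cannot be told apart.

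The upstream part of the same spacer differed from this. Positions 1 to 1642 held 2.95% of the NKRF UV coverage of the 47S and 2.65% of the tag-only UV coverage, a ratio of 1.11 (1.07 to 1.16), and 4.07% against 5.88% with PAR, a ratio of 0.693 (0.547 to 0.890). Neither interval meets that of the downstream part. The upstream ratios depend on the scale as well. Scaled to all reads of the library they were 2.68 with UV and 8.25 with PAR. Over the 47S coverage without 18S they were 0.342 and 0.229. The downstream part thus held 50.9% of the 5′ ETS coverage with NKRF and 2.49% with the tag in the UV pair, and 89.1% and 29% in the PAR pair, on 55.1% of the 5′ ETS length. Its UV coverage was also spread more widely. With NKRF, 50% of the UV coverage lay on 334 of its 2014 positions, and upstream on 23 of 1642, while the PAR coverage had 229 and 232 positions. The UV contrast was also there with the tag alone, at 182 positions in the region and 20 upstream. The tag-only PAR coverage had 108 and 47.

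**Figure D1:**
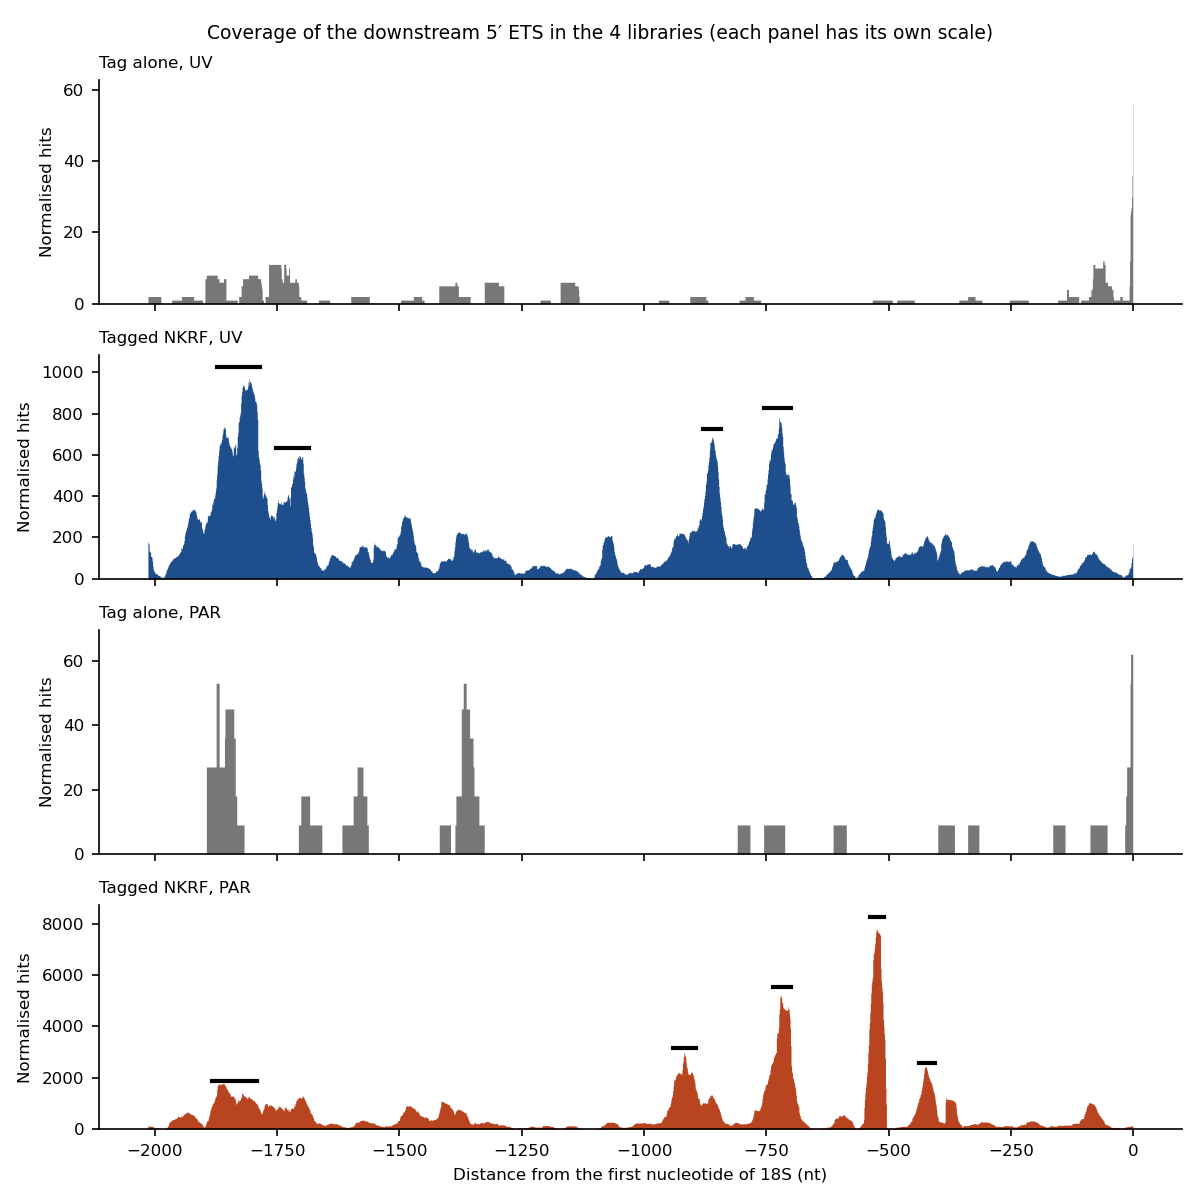
Coverage in normalised hits (y axis, a separate linear scale in each panel) along the region in the 4 libraries, 1 library per panel, against the distance from the first nucleotide of 18S (position 3657). Black bars mark the half-height extent of the called peaks, with summits at -1808, -1705, -860 and -724 nt in NKRF UV and at -1862, -918, -721, -524 and -424 nt in NKRF PAR; tag-only coverage reaches 56 and 62 normalised hits, both next to 18S.

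In windows of 50 nt, the difference from the tag was found along the region. All 40 windows that lie wholly within it were called higher with NKRF in the UV pair, where 61.5% of the 252 windows examined on the 47S were so called. In the PAR pair 37 of 40 were called higher, against 45.0% of 240 on the 47S, and the same 37 were called in both modes, against 41.7% of 235. A window was called at a log2 ratio of at least 1, taken between its shares of the 47S with 1 normalised hit added to each mean. None was called lower. The median log2 ratio of the 40 windows was 4.76 with UV and 3.36 with PAR, and that of all windows examined on the 47S was 1.79 and 0.34. With 10 normalised hits added, 34 windows remained above the threshold with UV and 20 with PAR. The share of 47S windows called at that setting is not given, so these counts have no background beside them.

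The 3 windows that missed the PAR call were 2051 to 2100, 2301 to 2350 and 3601 to 3650, with log2 ratios of 0.31, 0.68 and 0.06. Tag-only PAR means there were 14.9, 11.7 and 5.40 normalised hits, and NKRF PAR means 234, 241 and 78.6. The same windows had UV log2 ratios of 4.27, 4.01 and 1.92. The tag-only mean was 0 in 11 of the 40 windows with UV and in 21 with PAR. Of the others, the interval of the fold lay above 1 in 29 of 29 with UV and in 14 of 19 with PAR. Where it was 0, setting the tag to a floor of 3 reads across the window gave a lower bound of at least 2-fold in 11 of 11 windows with UV and in 8 of 21 with PAR.

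**Figure D2:**
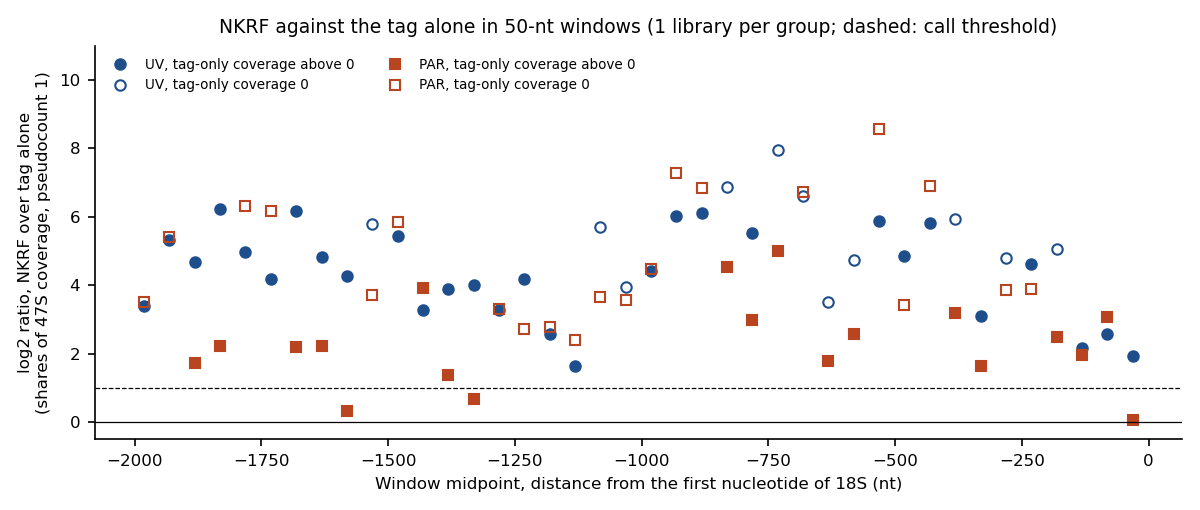
log2 ratio of NKRF over the tag alone (y axis; from shares of the 47S, after adding 1 normalised hit) for the 40 windows of 50 nt, against the distance of the window midpoint from 18S. Circles are the UV pair and squares the PAR pair, open where the tag-only coverage was 0; UV values run from 1.65 to 7.96 and PAR values from 0.06 to 8.57, and the dashed line is the call threshold of 1.

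The highest NKRF UV coverage lay at the 5′ end of the region, on positions 1774 to 1873. The UV summit there was 967 normalised hits at position 1849, where the tag-only UV library had 8, the NKRF PAR library 1262 and the tag-only PAR library 0. Its half-height peak ran from 1784 to 1873. The PAR summit of the stretch was 54 nt further upstream, 1780 normalised hits at position 1795, with edges at 1774 and 1867. At that position the tag-only PAR library had 27, the NKRF UV library 696 and the tag-only UV library 6. The summits thus fell apart while the peaks shared 84 nt, which is 93.3% of the UV peak and 89.4% of the PAR peak. Over the joined stretch NKRF averaged 718 normalised hits and the tag 5.31 in the UV pair, 56.2-fold by share (33.4 to 103). In the PAR pair it was 1282 and 20.01, 5.38-fold (2.71 to 12.5).

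Positions 1905 to 1973 followed as a second UV peak, with 598 normalised hits at its summit, position 1952. The NKRF PAR coverage at that position was 1235, and the tag-only libraries had 2 with UV and 9 with PAR. The nearest PAR summit was 7 nt away at position 1959, with 1306 normalised hits. At 1.98 times the region mean it fell just short of the height rule. The mean of the stretch was 31.6-fold higher with NKRF by share in the UV pair (19.3 to 55.6) and 14.7-fold in the PAR pair (4.05 to 122), the latter resting on 2 tag-only reads. Positions 1692 to 1974, from the start of the PAR peak at 1724 to the end of that at 1959, held 36.8% of the NKRF UV coverage of the region and 19.3% of the NKRF PAR coverage. This block was delimited after its values were seen.

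By the peak rule, each of a pair of neighbouring stretches in the middle of the region had a summit called in a different mode. Positions 2716 to 2763 had the PAR summit, 2980 normalised hits at position 2739, where NKRF UV coverage was 215 and both tag-only libraries had 0. Positions 2778 to 2814 had the UV summit, 686 normalised hits at position 2797, where NKRF PAR coverage was 1293 and both tag-only libraries again had 0. In the PAR library the second stretch was a shoulder of up to 1346 normalised hits beside the first peak. The first stretch had 7.91% of the PAR coverage of the region and 2.83% of the UV coverage, and the second 2.93% and 5.51%. The UV folds of 163 (44.8 to 1353) and 517 (143 to 4276) rested on 2 tag-only reads each. Tag-only PAR coverage was 0 across both, with lower bounds of 6.88-fold and 3.30-fold.

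Positions 2903 to 2957 held the only summits called in both modes within 20 nt of each other. The UV summit, 781 normalised hits at position 2933, and the PAR summit, 5216 at position 2936, were 3 nt apart, and both peaks ended at position 2957. The PAR peak, from 2920, lay wholly within the UV peak, of which it covered 69.1%. Tag-only coverage at these summits was 0 with UV and 9 normalised hits, 1 read, with PAR. The stretch held 8.99% of the NKRF UV coverage and 14.5% of the NKRF PAR coverage of the region. With UV it was at least 68.8-fold higher by share than a tag floor of 3 reads, and with PAR it was 42.7-fold higher (7.65 to 1689).

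The highest PAR coverage of the region, 7784 normalised hits at position 3133, belonged to positions 3118 to 3147. The NKRF UV coverage there was 335, the tag-only UV coverage 1 and the tag-only PAR coverage 0. This narrow stretch of 30 nt held 14.4% of the NKRF PAR coverage of the region and 2.41% of the NKRF UV coverage, so its PAR share was 5.97 times its UV share. Its PAR height and edges come under the limit on PAR coverage stated above. The UV library had a summit 2 nt away, at position 3135, but with 339 normalised hits, 1.89 times the region mean, it missed the height rule. By share the stretch was 151-fold higher with NKRF in the UV pair (26.9 to 5964), resting on 1 tag-only read, and at least 20.02-fold higher in the PAR pair.

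Positions 3220 to 3251 had a PAR summit of 2440 normalised hits at position 3233. The NKRF UV coverage there was 200, and both tag-only libraries had 0. The closest UV summit was again 2 nt away, at position 3235, with 208 normalised hits. The lower bounds of the fold by share were 20.6 with UV and 5.81 with PAR. The PAR share of this stretch was 2.84 times its UV share.

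Counted by the rule, NKRF UV had 4 peaks and NKRF PAR 5 in the region, and 1 summit of each had a counterpart within 20 nt. On the whole 47S, 5.97% of 67 UV summits and 36.4% of 11 PAR summits had one. The count depends on the height asked for. At 1 times the region mean there were 11 peaks in each library and 6 in each had a counterpart, at distances of 7, 11, 3, 2, 2 and 1 nt from 5′ to 3′. The further matches were the summits at 1952 and 1959, 2167 and 2178, 3135 and 3133, 3235 and 3233, and 3273 and 3274. The others were further apart. The UV summit at 2278 lay 35 nt from the PAR summit at 2243, and the UV summits at 2590 and 3450 lay 149 and 117 nt from the nearest PAR summit. On the whole 47S at this lower height, 15 of 81 UV summits and 15 of 27 PAR summits had a counterpart within 20 nt.

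**Figure D3:**
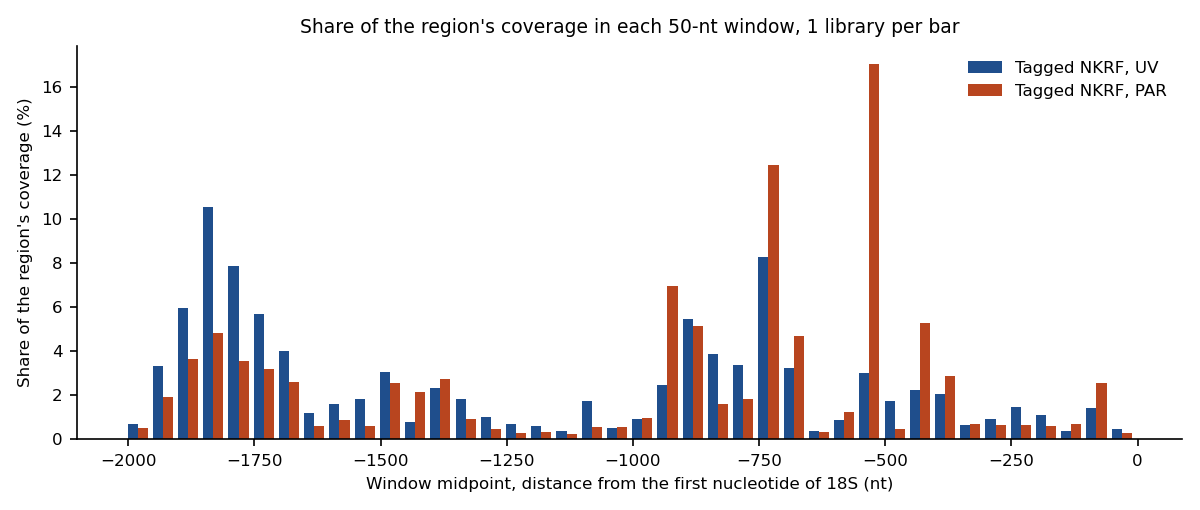
Share of the region's coverage (y axis, percent) in each of the 40 windows of 50 nt, for NKRF UV and NKRF PAR, against the distance of the window midpoint from 18S; each bar is 1 library. The highest UV bar is 10.6% at positions 1801 to 1850 and the highest PAR bar is 17.0% at positions 3101 to 3150.

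The profiles of the modes followed each other in rank along the region and differed in weight. The Spearman correlation of NKRF UV and NKRF PAR coverage was 0.79 across the 40 windows, against 0.34 across the 276 windows of the whole 47S. The correlation of NKRF with tag-only coverage within the region was 0.13 with UV and 0.22 with PAR, where most tag-only windows hold a few reads or none. The 5 windows with the most NKRF UV coverage were 1801 to 1850, 2901 to 2950, 1851 to 1900, 1751 to 1800 and 1901 to 1950, with means of 762, 597, 566, 430 and 411 normalised hits. Those with the most NKRF PAR coverage were 3101 to 3150, 2901 to 2950, 2701 to 2750, 3201 to 3250 and 2751 to 2800, with means of 4526, 3303, 1845, 1405 and 1370. One window, 2901 to 2950, is on both lists.

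The weight of the 5′ part was lower with PAR. All 7 windows from 1651 to 2000 had a lower share of the region with PAR than with UV, at ratios from 0.449 to 0.761. Ratios below 1 were not confined to this part. Outside it the ratio ran from 0.273 at positions 3151 to 3200 to 5.68 at positions 3101 to 3150. The number of T in a window, from 2 to 13, had a Spearman correlation of 0.12 with this ratio across the 40 windows.

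Between the peaks lay troughs of both NKRF libraries. Those taken as at least 5 nt in a row below 10% of the region mean in both libraries numbered 5. They were positions 1664 to 1677, 2530 to 2555, 2998 to 3028, 3088 to 3094 and 3633 to 3640. The longest, of 31 nt, lies 3′ of the shared peak that ends at 2957 and had at most 16 normalised hits with UV and 44 with PAR. Its sequence is shown as the longest stretch with little NKRF coverage in either mode.
Positions 2998 to 3028: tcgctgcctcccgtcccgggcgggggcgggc
The sharpest single steps differed between the libraries. With PAR the steepest rise was at position 3273, from 279 to 1049 normalised hits, and the steepest fall after position 3140, from 7541 to 6261. With UV the steepest rise was at position 2104, from 95 to 155, and the steepest fall was at position 1868, from 772 to 621.

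At the 3′ border the spacer coverage was low up to the last nucleotides. At position 3648 the coverage was 34 normalised hits with NKRF UV, 1 with tag-only UV, 102 with NKRF PAR and 27 with tag-only PAR. At the last position of the spacer it was 167, 56, 142 and 62. At position 3657, the first of 18S, it was 9509, 5643, 363 and 1488. The step from spacer to 18S was thus 56.9-fold with NKRF UV and 101-fold with tag-only UV, 24-fold with tag-only PAR, and 2.56-fold with NKRF PAR, the smallest of the 4. At the 5′ border there was no such step. NKRF UV coverage was 188 at position 1642 and 179 at the next position, and NKRF PAR coverage 142 and 137. It then fell into the trough that begins at position 1664.

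The tag-only reads lay in a few separate stretches, 21 with UV and 13 with PAR. With UV the one reaching highest adjoined 18S, from position 3550 on, and reached 56 normalised hits at its last position, about 47.1 reads. Next came positions 1883 to 1967 at 11 normalised hits, 1760 to 1825 and 1829 to 1879 at 8 each, and 2238 to 2301 and 2331 to 2370 at 6 each, the height also of positions 2486 to 2524. With PAR the positions from 3640 to 18S reached 62 normalised hits, 1763 to 1839 and 2271 to 2330 reached 53, 2040 to 2093 reached 27 and 1951 to 1998 reached 18. The other 8 PAR stretches were single reads. The tag-only stretches from 1760 to 1879 with UV and from 1763 to 1839 with PAR overlap the highest NKRF UV stretch, where the tag was lower by the folds given above. Whether those tag-only reads share a source with the NKRF reads was not tested.

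Substitutions in the NKRF PAR library were found at T alone, with 0 hits of substitution at A, C or G in the region or elsewhere on the 47S. Whether other changes were removed before deposit is not given in the sources used here. Nor is it given whether reads with no changed T were kept, so the shares below need not be rates of crosslinking. This was not tested. Over the region, 21.5% of the coverage at T was substituted, against 18.4% in the rest of the 47S. Of the 279 T, 265 had at least 10 reads, and 19 of these were substituted in at least 50%, or 7.17%, where 8.11% of the 1467 such T of the 47S were. The median T was substituted in 14.8% of reads. A few T took many of the substitutions. T3140 alone held 17.3% of all substituted hits of the region, and T3140, T2953, T3233, T2738 and T2935 together held 34.9%.

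**Figure D4:**
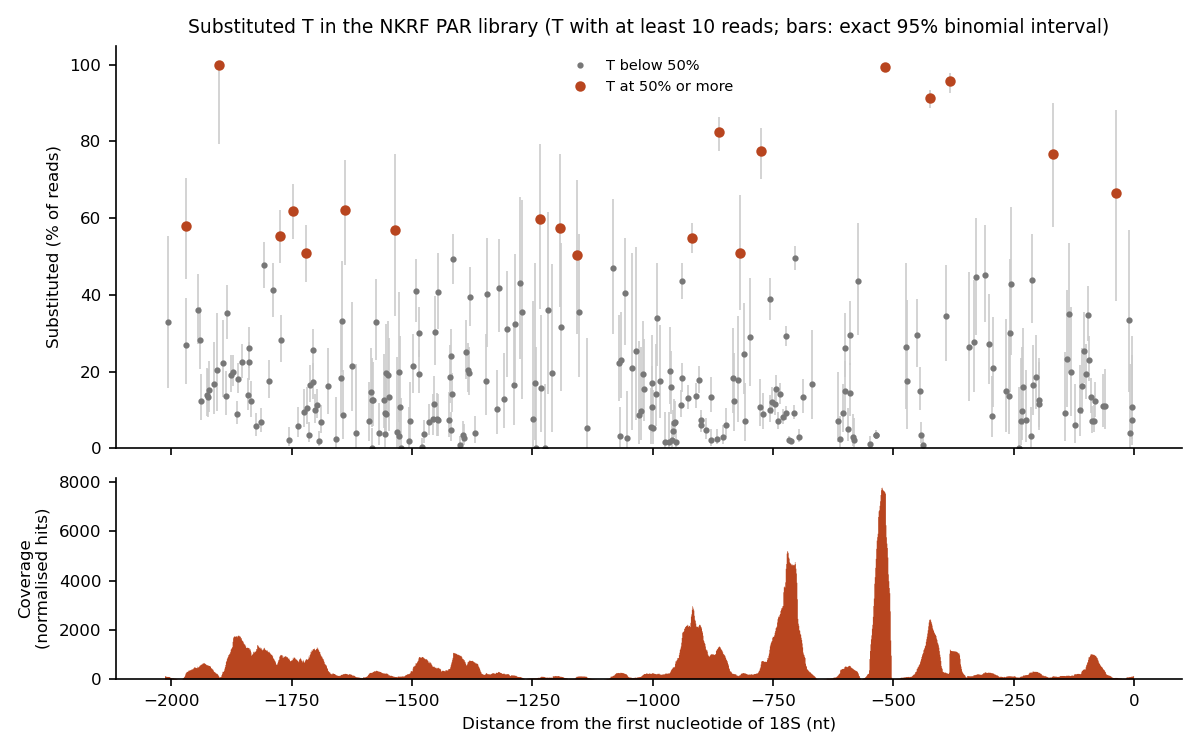
Upper panel, share of NKRF PAR reads substituted (y axis, percent) at each of the 265 T with at least 10 reads, with exact 95% binomial intervals as vertical lines; the 19 T at 50% or more are larger and coloured. Lower panel, NKRF PAR coverage in normalised hits; the T at 99.3%, 91.3% and 95.6% stand at -517, -424 and -383 nt from 18S, under PAR summits at -524, -424 and -383 nt.

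The 3 most substituted T of at least 50 reads stood at or within a few nucleotides of PAR summits. Their shares and places come under the limit on reads with no changed T stated above. T3140, 7 nt 3′ of the summit at 3133, was substituted in 99.3% of 1704 reads (98.8 to 99.6), and held 95.4% of the substitutions of that peak although the stretch has 3 T. T3233 coincided with its summit and was substituted in 91.3% of 551 reads (88.6 to 93.5). It is the only T of its stretch. T3274 coincided with the lower summit at 3274 and was substituted in 95.6% of 275 reads (92.5 to 97.7), also as the only T between the edges of its peak, 3273 and 3296. The UV library had substitutions at these T in 1.80%, 2% and 1.41% of reads and deletions in 2.10%, 0.5% and 0.469%. Nearer to 18S, T3488 at 76.7% of 30 reads and T3619 at 66.7% of 15 reads lay 79 and 52 nt from the closest PAR summit.

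T2794, 3 nt from the UV summit at 2797, was substituted in 82.4% of 300 PAR reads (77.5 to 86.5), and T2883 in 77.4% of 168 (70.3 to 83.5). T2738, beside the PAR summit at 2739, was substituted in 54.8% of 639 reads, and T2953, near the end of the peak shared by both modes, in 49.6% of 1058. In the wide 5′ block the highest T of at least 50 reads was T1910, at 61.9% of 189 reads (54.6 to 68.9), and the most substituted T of the peak at 1795, T1850, was at 47.7% and held 18.7% of the substitutions of that peak. T2017, in the lower stretch behind the block, was at 62.1% of 53 reads and T1687, ahead of it, at 57.9% of 59. Summed over a peak, the substituted hits came to 1.01 times the summit coverage at 3133, 0.913 times at 3233 and 0.957 times at 3274, the peaks with 3, 1 and 1 T. They came to 1.85 times at 1795 and 2.34 times at 1959, with 13 and 16 T between their edges. Of the most substituted T, the median one had 2 further T within 15 nt, and among the remaining 246 the median was 4. A G preceded 16 of the 19 and 116 of the 246, a description with no test.

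Deletions in the UV library, which reverse transcription tends to leave at UV crosslinks, were concentrated at T. T made up 15.3% of the NKRF UV coverage of the region and 54.7% of its deletions, at 1.09% of the coverage at T. Without the 2 positions deleted in at least 50% of reads, the deleted share was 0.769% at T, 0.109% at A, 0.0624% at C and 0.160% at G. In the rest of the 47S, with no position left out, 0.362% of the coverage at T was deleted. The region's value by that same rule is the 1.09% above. In all, 0.305% of the NKRF UV coverage of the region was deleted and 0.179% of that of the rest. The tag-only UV library had 13 deleted hits on 3319 hits of coverage in the region, or 0.392%, and 7 of them on 474 hits at T, or 1.48%. On so few reads a difference between NKRF and the tag in the deleted share was not detectable.

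Positions with at least 20 NKRF UV reads numbered 1901, and 19 of them were deleted in at least 5%, where 0.673% of 12331 positions of the 47S were. Of these 19, 13 were T, where 45 of the 83 such positions of the whole 47S were T. T1757 was deleted in 82.3% of 239 reads (77.0 to 87.0). The 2 positions deleted in at least 50% of reads, T1757 among them, held 30.6% of the deletions of the region, and without them 0.212% of the coverage was deleted. Below both, among positions with at least 50 reads, were T2017 at 15%, T2654 at 9.62%, T2503 at 8%, G2048 at 7.81%, T1868 at 7.09% (5.29 to 9.32) and T1817 at 7.06% (5.25 to 9.37). T1868, T1817 and the neighbouring G1866, at 5.43%, lie within the highest UV stretch, and the steepest fall of UV coverage is the step onto T1868. T2017 also had a high substituted share with PAR, as given above, and 12.4% with UV. At the shared peak T2934, 1 nt from the UV summit, was deleted in 4.17% of 834 reads (2.94 to 5.79).

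Substitutions in at least 10% of NKRF UV reads were found at 30 of the 1901 positions, where 1.33% of 12331 positions of the 47S had them. They were 15 C, 9 T, 4 A and 2 G, where the 164 such positions of the whole 47S were 61 C, 39 T, 27 A and 37 G. By base, 2.90% of the coverage at A was substituted, 2.43% at T, 1.54% at C and 0.939% at G. Of the positions with 50 reads or more, the most substituted were C1749 at 36.2% of 303 reads (30.9 to 42.0), C3204 at 22.9%, A2332 at 19.7%, C3273 at 19.5%, C2299 at 18.4%, C3412 at 17.7%, A3383 at 16.1% and C2437 at 15.9%. C3273 is the position at which PAR coverage rose most steeply. The tag-only UV library had at most 6 normalised hits at any of these 8, and 2 substituted hits in all, 1 at C1749 and 1 at A2332.

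At T1757, G2392 and G2484, which are not the full set, at least 80% of NKRF UV reads differed from the deposited sequence, by deletion or substitution together. The shares were 95.5% at T1757, 100% of 24 reads at G2392 and 95.8% of 26 reads at G2484. The tag-only UV library had no coverage at any of these 3 positions. The surrounding 31 nt are printed with the position in capitals, since PAR coverage was low at each of these 3.
Position 1757: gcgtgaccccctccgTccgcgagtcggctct
Position 2392: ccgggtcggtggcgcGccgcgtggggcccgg
Position 2484: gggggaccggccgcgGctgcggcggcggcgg

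NKRF PAR coverage was lower at each of these 3 sites than 30 nt away on either side. At position 1757 it was 71 normalised hits, 16 reads that were all substituted at this T, against 633 at 30 nt before and 1749 at 30 nt after. The NKRF UV coverage there was 220, against 298 and 597. At position 2392 the PAR coverage was 0, against 177 and 71 at 30 nt on either side. The NKRF UV coverage at 2392 was 22, against 104 and 44. At position 2484 the PAR coverage was 22, with the lowest value, 9, at position 2482, against 142 and 124. The NKRF UV coverage at 2484 was 24, against 67 and 42, so both libraries were low at these sites.

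Of these sites, only position 1757 lies between the PAR summits at 1724 and 1795, and its part in that gap was not tested.

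**Figure D5:**
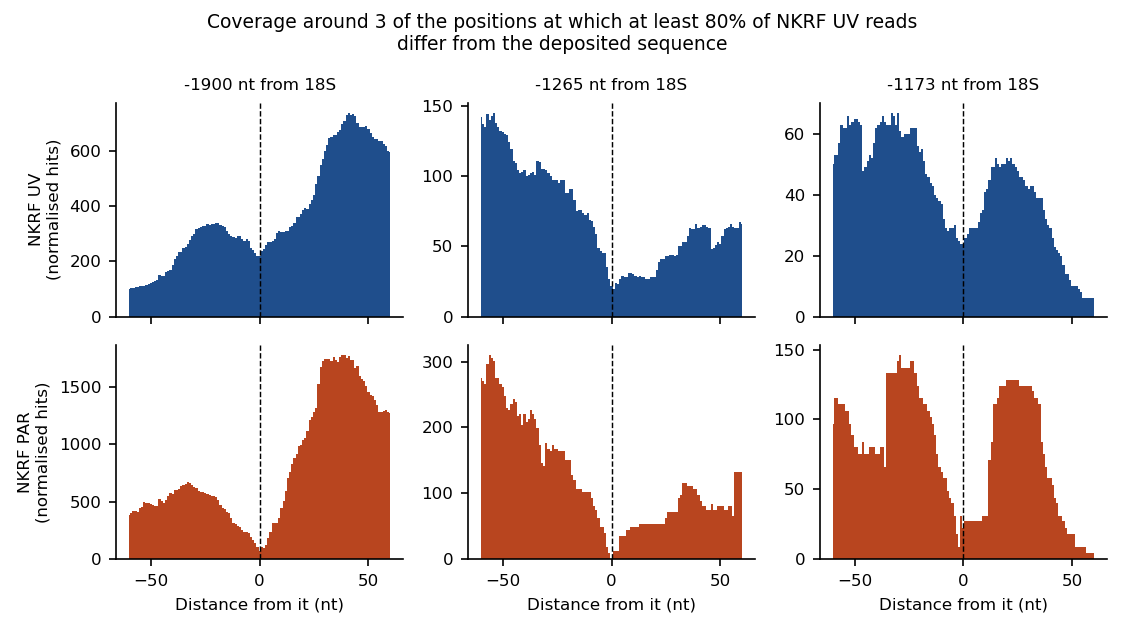
NKRF UV coverage (upper row) and NKRF PAR coverage (lower row) in normalised hits, on a separate linear scale in each panel, up to 60 nt on either side of 3 of the positions at which at least 80% of UV reads differed from the deposited sequence (dashed line). From left to right these lie -1900, -1265 and -1173 nt from 18S (positions 1757, 2392 and 2484); PAR coverage at them is 71, 0 and 22 normalised hits.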

How the data were processed

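CRAC libraries of 4 groups, 1 library each, were analysed from the coverage of every nucleotide of the 47S pre-rRNA. Reads were mapped with Bowtie2 2.2.4, per the submitters' processing notes. For the filters, the genome build and the handling of duplicates, the procedure is not given in the sources used here. The deposited signal is coverage, with substitutions and, for UV, deletions, per the file headers, and the values show that the authors scaled it to 1000000 reads and rounded it. The deposited score per RNA class summed to about that number in each library and was used for that check alone. In the tag-only PAR file the headers are shifted by a column; its coverage was read from the column headed as substitutions, and its substitutions were left out.

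What 1 read contributes was estimated from the spacing of the values. Below 1 normalised hit per read this is less sure: of 15 steps from 0.85 to 0.99 set on the NKRF UV read numbers, 10 were recovered within 0.5% and the largest error was 12.6%. The least number of reads behind a stretch is its entry value plus all rises. Fold intervals come from the exact binomial split of those reads, and shares carry exact Clopper-Pearson intervals. Windows of 50 nt were examined at a mean of at least 20 normalised hits. The 5′ border of the region was taken as given, not measured here. Named features were the 6 highest peaks, 5 highest windows, 8 highest T, 8 highest deleted and 8 highest substituted positions (of at least 50 reads), and the tag-only stretches of at least 5 reads (UV) or 2 reads (PAR), at most 6 a library; others named were chosen after their values were seen, and 1 position that meets the rules for deleted and for mostly changed positions is not reported here; counts and shares over the region include it. The members and rules were chosen with earlier results of these data known. Pairing was predicted with ViennaRNA 2.7.2 (RNAplfold, window 150 nt, span 100 nt). Step recovery, peak calls and intervals were tested on simulated data. Python 3.11.15, numpy 2.4.6, pandas 2.3.3, scipy 1.17.1 and matplotlib 3.10.9 were used.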

Additional observations from a re-analysis of the deposited data

How the results depend on the processing

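With 1 library per group no library could be left out, and no paired analysis across replicates was possible. Of 72 alternatives over 15 results, 49 left the value within its interval or within 1.5 times the count, 23 moved it and 0 reversed it. The log2 ratio of the region, 5.50 with UV and 3.79 with PAR, was 6.76 and 7.36 scaled to all reads, and 3.80 and 2.19 over the 47S without 18S. With a pseudocount of 10, 20 windows were called higher with PAR and 20 in both modes. At a height of 1 times the mean there were 11 UV and 11 PAR peaks with 6 matched summits in each, and at 4 times the mean 2 and 3 peaks; with a prominence of 25% of the height, 2 summits matched in each. Of T at 50% or more, 19 by the rule, 11 had at least 50 reads; at least 25% was reached by 74 and at least 75% by 7, and 18 remained without T1757, a setting added after the data were seen. Moving the worth of 1 NKRF UV read down or up by 12.6%, also added later, gave 19 and 19 deleted positions and 31 and 30 substituted ones. Without the 5 most substituted T, 15.8% of T coverage was substituted. At least 2% was deleted at 58 positions and at least 10% at 3; at least 5% was substituted at 125 and at least 20% at 5. Without the 5 positions with the most deletions, 0.177% of UV coverage was deleted. The cause of these shifts was not tested. Apart from the peaks at 1 times the mean, the counts at other settings are given without the share over the whole 47S. The tag-only profiles, of at least 124 and 34 reads, limit every fold in the region.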
